A study of Mus musculus with 6 samples.

Results

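The clustered histone genes encode the core histones H2A, H2B, H3 and H4 and the linker histone H1, and lie mainly in 3 clusters named Hist1, Hist2 and Hist3, with a lone Hist4 gene. Members were taken by symbol: each gene of the deposited tables whose Ensembl identifier matched a GENCODE M21 symbol starting with Hist1h, Hist2h, Hist3h or Hist4h. This gave 65 of the 29267 genes in the tables, out of 70 such symbols in the annotation, and the other 5 are not analysed here. There were 53 members of the Hist1 cluster on chromosome 13, 9 of Hist2 on chromosome 3, 2 of Hist3 on chromosome 11 and 1 of Hist4 on chromosome 6. By product, 6 encode H1, 19 H2A, 15 H2B, 12 H3 and 13 H4. The annotation calls 64 of them protein coding and Hist1h2al a processed pseudogene.

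The libraries came from mouse neural stem cells of the OG2 strain at passage 8, so strain and passage are shared by every group. Cells were collected after differentiation, under the label D2, or kept as neural stem cells (NSC), and in each state were cultured with naloxone, an antagonist of opioid receptors, with DAMGO, a synthetic peptide that activates the mu opioid receptor, or as the control labelled Con. The series asks how naloxone bears on the growth and differentiation of these cells. The groups are thus D2 with naloxone, D2 with DAMGO, D2 control, NSC with naloxone, NSC with DAMGO and NSC control, with 1 library each, and the labels do not give the number of cultures behind a library, the doses or the days of exposure.

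Most of these genes are known as replication-dependent histone genes. They have no introns, are transcribed in nuclear foci built around NPAT as cells copy their DNA, and their mRNAs end just after a short stem-loop that is bound by SLBP and takes the place of a poly(A) tail. Some of them can also make longer, polyadenylated mRNAs, which have been described in differentiated cells. The TruSeq RNA kit named in the protocol is usually run with a selection of polyadenylated RNA, which captures tailless histone mRNA poorly, so the values below need not stand for total histone mRNA.

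The 3' ends annotated for the members are shown first because they bear on what such a library can hold. A stem-loop spelled as GGCTCT, TTT, any base N and AGAGCC in a row, or as GGCCCT, TTT, N and AGGGCC, searched on the transcript strand, was found in 40 of the 65 members, against 0.152% of the 28954 annotated genes searched, of which 4 were no members. The stem-loops of 5 members that were abundant enough to be tested, and of Hist1h2ap, which was not, are printed 5' to 3' with the 16 letters of the search in capitals and up to 5 bases to either side, from GENCODE M21.
Hist1h1c: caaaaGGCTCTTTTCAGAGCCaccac
Hist3h2a: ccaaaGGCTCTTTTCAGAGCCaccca
Hist3h2ba: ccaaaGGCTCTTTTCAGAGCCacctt
Hist1h4i: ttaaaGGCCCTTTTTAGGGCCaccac
Hist4h4: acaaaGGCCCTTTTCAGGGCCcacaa
Hist1h2ap: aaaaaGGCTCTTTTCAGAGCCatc
After the stem-loop the annotated transcript ran on for 840 bases in Hist1h1c, 1643 in Hist3h2a, 169 in Hist3h2ba, 330 in Hist1h4i and 2445 in Hist4h4, and for 3 bases in Hist1h2ap. Hist2h2aa2 had 35 bases after it and Hist1h2bk 30.

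A poly(A) signal, AATAAA or ATTAAA, lay within the last 50 annotated bases of 17 of the 65 members, against 41.5% of all annotated transcripts. The ends of 6 members with such a signal are printed with the signal in capitals, as examples from the 7 members with a signal that were tested for the comparison below. The other 5 tested members, Hist1h2bc, Hist2h2aa2, Hist2h3c2, Hist1h2bk and Hist1h2al, had none.
Hist1h1c: gtatgcttctAATAAAaagcgtttagtttt
Hist2h2be: tattattattAATAAAgttaccgattagtt
Hist3h2a: gtatatgcccAATAAAataagagtacgtgt
Hist3h2ba: taatggtattAATAAAtttggttcaatttt
Hist1h4i: ttctgtttacATTAAAagtattctatgcta
Hist4h4: gaggagatgaAATAAAtac
The 7 tested members with a signal held 52.1% of the members' TPM in D2 and 39.6% in NSC, and the 5 without one 37.9% in D2 and 18.1% in NSC. Of these 5, all but Hist1h2bc reached the mean of 10 counts needed for testing only through their D2 counts. Those 4, which held 19.1% in D2 and 3.64% in NSC, thus had to be higher in D2, so the shares of the 2 sets cannot be compared. The 17 members with a signal held 74.9% of all expected counts of the members in D2 and 72.8% in NSC. The 20 members whose transcript ran on for over 100 bases after the stem-loop held 68.1% in D2 and 61.0% in NSC. The transcript lengths in the deposited tables differed from GENCODE M21 for at least 19 of the 70 member transcripts, among them those of Hist1h2bc, Hist1h2al and Hist4h4. For these the annotated ends may not be the ones the authors counted on. Lengths could be compared only for members with a single transcript, so Hist1h2be, Hist1h2bp, Hist1h2bq and Hist1h2br were not compared.

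Library totals were 8417041 (naloxone), 8809596 (DAMGO) and 10218317 (control) rounded expected counts in D2, and 13561208 (naloxone), 9112878 (DAMGO) and 10674082 (control) in NSC. Calls of markers are those of the comparison of D2 with NSC given below, where 40.0% of all genes tested were called higher in D2 and 39.8% lower. Nestin (Nes), the stem cell intermediate filament, had a log2 fold change of -2.18 (SE 0.04) for D2 minus NSC. Of 9 stem cell and progenitor markers, 7 were called higher in D2, Fabp7 and Sox2 among them, and 2 lower, Nes and Vim. Markers of astrocytes were higher in D2 for 8 of 8 (Apoe, Gfap, Clu and Aqp4 by the largest amounts, Gfap by 5.67 on the log2 scale, SE 0.31). Of the oligodendrocyte lineage, 6 of 7 tested were called higher (Gpr17, Sox10, Pdgfra and Cnp among them) and 1 lower. Markers of neurons were higher for 4 of 6 (Tubb3 by 3.13, SE 0.08, Dcx and Rbfox3 among them), with Snap25 lower. Markers of other cells summed to little: 1.37 to 2.26 CPM (counts scaled by library total) in D2 and 2.74 to 3.74 CPM in NSC for the 6 of microglia and macrophages, with Cx3cr1 at 0 in all libraries and Cd68 called lower in D2, and 2.83 to 3.92 CPM in D2 and 2.09 to 3.58 CPM in NSC for the 4 of endothelium, with Cldn5 at 0. The 6 of fibroblasts and pericytes summed to 14.7 to 25.4 CPM in D2 and 0.771 to 9.60 CPM in NSC, with Pdgfrb and Acta2 called higher. The 3 of pluripotent cells, with Zfp42 at 0, summed to 0.452 to 2.83 CPM in D2 and 0.110 to 0.295 CPM in NSC. The part of any cell type in the histone values was not tested, and in bulk RNA a change in the share of cells cannot be told apart from a change in RNA per cell.

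Summed over all 65 members, the clustered histone genes were higher in the D2 libraries than in the NSC libraries. Their summed level was 447.6 TPM with naloxone, 462.9 TPM with DAMGO and 498.2 TPM in the control in D2, against 156.0 TPM with naloxone, 181.7 TPM with DAMGO and 159.9 TPM in the control in NSC (TPM, the authors' abundance scale, is corrected for transcript length and library depth). The lowest D2 library was thus above the highest NSC library, with means of 469.6 ± 25.9 TPM in D2 and 166 ± 13.9 TPM in NSC (SD over the 3 ligand conditions, which are not replicates), a ratio of 2.83. Most of this level came from a few genes: the 12 members whose mean count across the libraries reached 10 held 89.9% of the members' TPM in D2 and 57.7% in NSC.

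**Figure D1:**
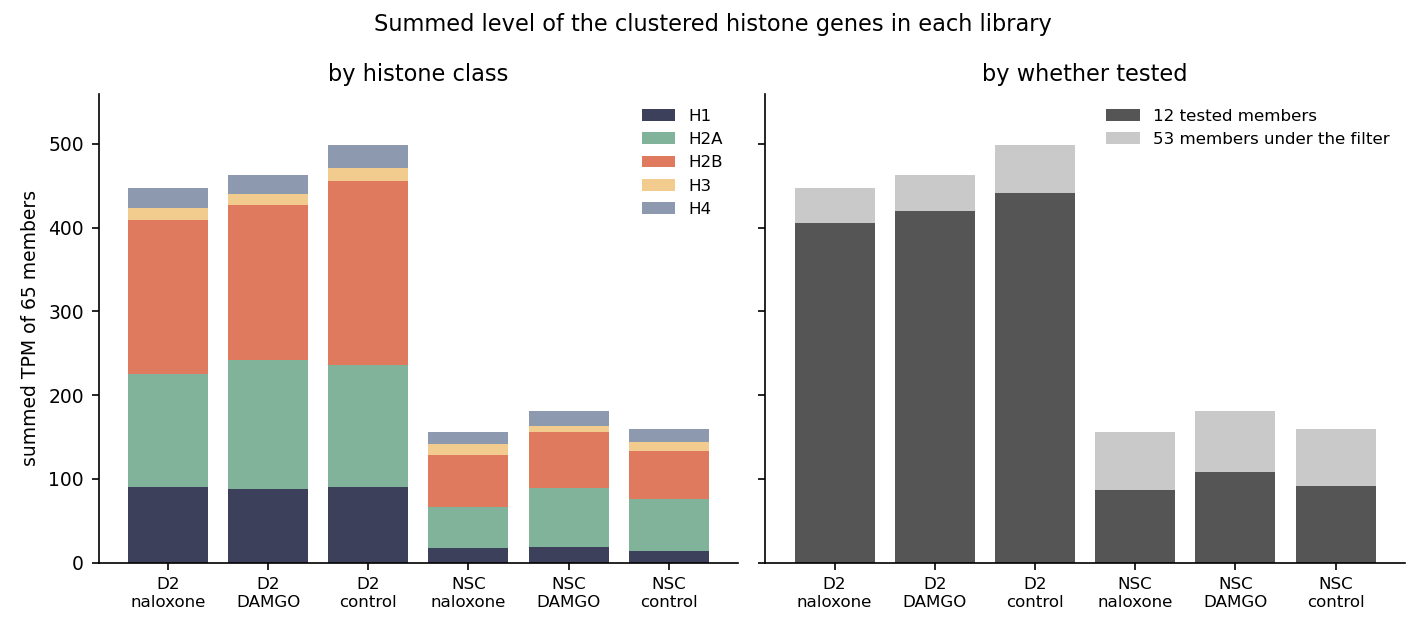
Summed TPM of the 65 clustered histone genes in each library, as bars that start at 0 and are stacked by histone class (left) and by whether a member was tested (right). The D2 libraries reach 447.6 to 498.2 TPM and the NSC libraries 156.0 to 181.7 TPM, and the 53 members under the filter make up more of the NSC bars.

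The comparison of D2 with NSC was fitted over all 13216 genes that passed that filter, with state and ligand as terms in edgeR's quasi-likelihood test and Benjamini-Hochberg adjustment over these genes. Of the 12 members tested, 11 were called higher in D2 and 1, Hist4h4, lower, at an adjusted p under 0.05, while 79.8% of all genes tested were called, 40.0% higher and 39.8% lower. The median log2 fold change was 1.93 over the 12 members and 0.00 over all genes tested. In TPM, the 3 libraries of each state did not overlap for any of the 12 members, 11 of them higher in D2 and 1 lower, which was so for 39.4% of all genes tested in the upward and 39.6% in the downward direction. Of the 12, 8 had a mean of at least 10 counts in each state. The other 4, Hist2h2aa2, Hist2h3c2, Hist1h2bk and Hist1h2al, passed the filter only through their D2 counts, so these had to be higher in D2 to be tested at all, and the counts over the 12 are a description. Of the 8, 7 were called higher and 1 lower, with a median of 1.74, and they held 70.8% of the members' TPM in D2 and 54.1% in NSC.

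**Figure D2:**
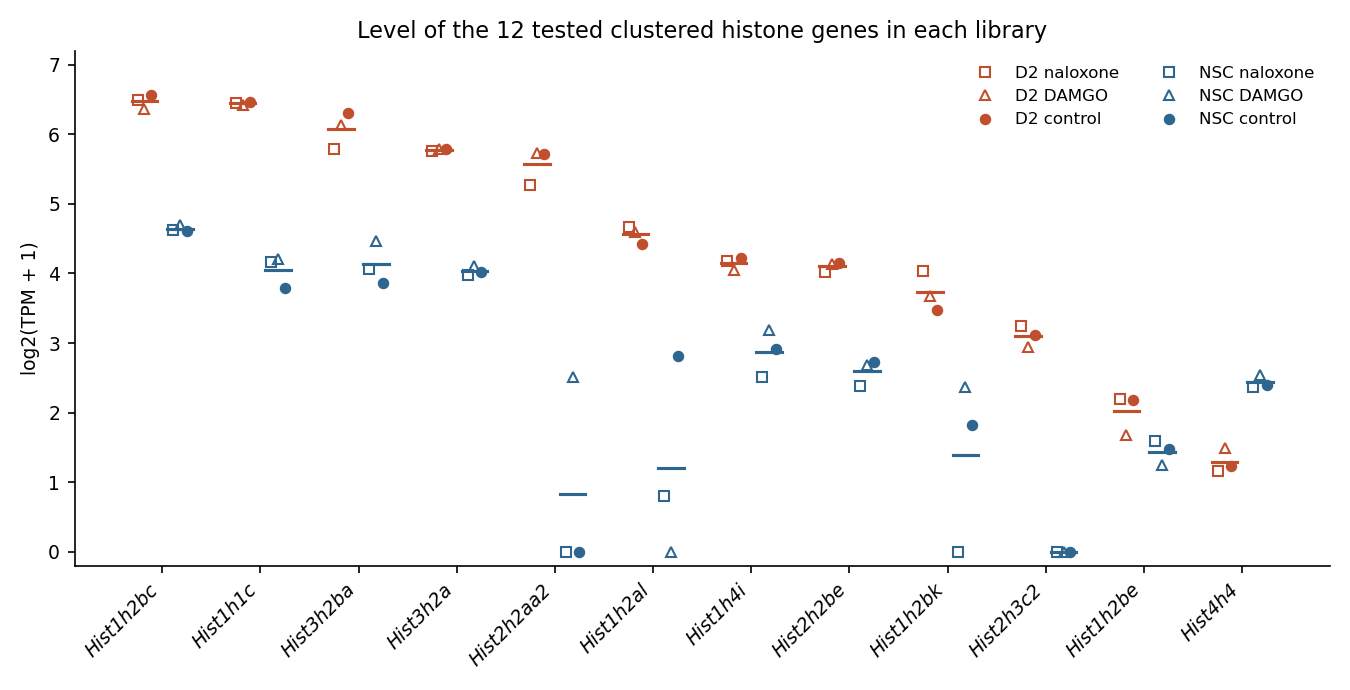
Level of the 12 tested members as log2(TPM + 1), D2 libraries in red and NSC libraries in blue, with 1 symbol per ligand condition and a line at the mean of the 3. Of these, 11 members lie higher in every D2 library than in any NSC library, and Hist4h4 lies lower.

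Hist1h1c, which encodes the linker histone H1.2, was the only H1 gene tested and had the smallest adjusted p of the 12 members. It lies at chr13:23738808-23740367 on the plus strand (mm10) in the Hist1 cluster. Its level was 86.3 TPM with naloxone, 85.0 TPM with DAMGO and 87.0 TPM in the control in D2, against 17.0 TPM with naloxone, 17.5 TPM with DAMGO and 12.9 TPM in the control in NSC. All D2 values were close together and far above all NSC values. The expected counts summed to 1620.5 in D2 and 360.57 in NSC, a ratio of 5.42 after scaling for depth (exact 95% interval of the counts 4.83 to 6.09, which covers counting error only). The log2 fold change was 2.44 (SE 0.10, edgeR adjusted p = 4.36e-10). Hist1h1c made up 18.3% of the members' TPM in D2 and 9.51% in NSC. The other 5 H1 genes summed to 2.85 to 4.36 TPM in D2 and 0.77 to 1.29 TPM in NSC, all at a few counts. Summed over its 6 genes, class H1 stood at 89.6 ± 1.51 TPM in D2 and 16.7 ± 2.25 TPM in NSC (SD, n = 3 ligand conditions each).

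Among the H2A genes, 3 of 19 were tested. Hist3h2a lies at chr11:58954685-58956830 on the plus strand, in the Hist3 cluster, beside the H2B gene Hist3h2ba. It had 53.1 TPM with naloxone, 54.2 TPM with DAMGO and 54.5 TPM in the control in D2, against 14.8 TPM with naloxone, 16.3 TPM with DAMGO and 15.2 TPM in the control in NSC. The values varied little within a state, and its log2 fold change was 1.80 (SE 0.08, edgeR adjusted p = 8.60e-10). Of its 50-base windows, 31.5% also occur in annotated transcripts of Trim17, an overlapping gene on the same strand, to which 31.9 to 57.0 expected counts were assigned in D2 and 7.0 to 11.6 in NSC. These are few beside the 421.61 to 532.29 counts of Hist3h2a in D2 and 141.37 to 191.33 in NSC.

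Hist2h2aa2, at chr3:96239749-96240276 on the minus strand, had 37.6 TPM with naloxone, 52.1 TPM with DAMGO and 51.6 TPM in the control in D2. In NSC it was listed at 0 with naloxone and in the control and at 4.70 TPM with DAMGO. The summed expected counts, 273.44 in D2 and 8.95 in NSC, gave a ratio of 36.7 with an interval of 19.1 to 81.2. The log2 fold change was 5.09 (SE 0.51, edgeR adjusted p = 1.69e-06), 4.46 without the NSC control library and 9.56 without the NSC library with DAMGO, the only NSC library with counts, so that last value is no bound. All of its 50-base windows occur in other annotated transcripts, those of its near-identical neighbour Hist2h2aa1 and of the antisense gene Gm20632, and the kit does not mark strand. The sum of Hist2h2aa1 and Hist2h2aa2 with their antisense partners Gm20632 and Gm20633 was therefore also taken. It stood at 138.6 counts with naloxone, 172.4 with DAMGO and 207.1 in the control in D2, against 69.8 with naloxone, 45.8 with DAMGO and 40.5 in the control in NSC, a ratio of 4.02 in CPM. In TPM it was 58.2 ± 9.41 in D2 and 5.33 ± 2.47 in NSC, a ratio of 10.9.

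Hist1h2al, the pseudogene, at chr13:51202727-51203065 on the minus strand and away from the other Hist1 genes, had 28.54 expected counts with naloxone, 28.88 with DAMGO and 29.35 in the control in D2. In NSC it had 1.43 with naloxone, 0 with DAMGO and 8.97 in the control. The ratio of the summed counts was 10.5 (interval 5.44 to 22.7). The log2 fold change was 3.37 (SE 0.61, edgeR adjusted p = 0.000297), 5.91 without the NSC control library and 2.75 without the NSC library with naloxone. Of its windows, 67.6% occur in other genes, mainly Gm20632, so its counts are uncertain. Class H2A as a whole stood at 145 ± 9.66 TPM in D2 and 60.5 ± 11.2 TPM in NSC, a ratio of 2.40.

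The H2B genes gave 5 of the 12 tested members. Hist1h2bc, at chr13:23684199-23692908 on the plus strand, was the member of highest mean TPM in D2, with 89.4 TPM with naloxone, 81.2 TPM with DAMGO and 93.2 TPM in the control, against 23.7 TPM with naloxone, 24.8 TPM with DAMGO and 23.5 TPM in the control in NSC. Its mean differed from that of Hist1h1c in D2 by less than the SD of its own 3 libraries. The log2 fold change was 1.87 (SE 0.11, edgeR adjusted p = 1.32e-08). Other genes held 30.6% of its windows, mainly Hist1h2bg.

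Hist3h2ba, at chr11:58948920-58949533 on the plus strand, shared no 50-base window with any other annotated gene, and its expected counts were whole numbers. It had 112 counts with naloxone, 153 with DAMGO and 198 in the control in D2, against 53 with naloxone, 48 with DAMGO and 36 in the control in NSC. In TPM this was 54.0 with naloxone, 68.9 with DAMGO and 77.7 in the control in D2, and 15.7 with naloxone, 21.2 with DAMGO and 13.6 in the control in NSC. The D2 libraries were all above the NSC libraries but spread more than for the members above, and the log2 fold change was 1.98 (SE 0.17, edgeR adjusted p = 3.87e-07).

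Hist2h2be, known in mice for an H2B variant of olfactory sensory neurons, lies at chr3:96221119-96223738 on the plus strand and also shared no window with another gene. It had 149 counts with naloxone, 174 with DAMGO and 201 in the control in D2, against 67 with naloxone, 58 with DAMGO and 70 in the control in NSC. Its level was 16.2 ± 0.825 TPM in D2 and 5.08 ± 0.764 TPM in NSC (SD, n = 3 ligand conditions each), with a log2 fold change of 1.67 (SE 0.13, edgeR adjusted p = 1.11e-07). Its counts, too, were whole numbers.

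Hist1h2bk had 23.64 counts with naloxone, 19.59 with DAMGO and 19.24 in the control in D2, and 0 with naloxone, 6.99 with DAMGO and 5 in the control in NSC. Its count ratio was 6.34 (interval 3.39 to 12.9), and 74.2% of its windows occur in other genes. Its log2 fold change was 2.61 (SE 0.61, edgeR adjusted p = 0.00187), 1.73 without the NSC library with naloxone and 3.40 without that with DAMGO.

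Hist1h2be, whose annotated locus overlaps Hist1h1e on the same strand, showed the smallest rise among the called members. It had 3.60 TPM with naloxone, 2.20 TPM with DAMGO and 3.52 TPM in the control in D2, against 2.01 TPM with naloxone, 1.38 TPM with DAMGO and 1.78 TPM in the control in NSC, a log2 fold change of 0.91 (SE 0.27, edgeR adjusted p = 0.00915). With DESeq2 its adjusted p was 0.116, in a range of 0.00631 to 0.116 over 16 alternatives, so this call rests on the test used. The H2B sum was 196 ± 21.1 TPM in D2 and 62.0 ± 4.99 TPM in NSC, a ratio of 3.16.

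The H3 genes had 1 tested member of 12. Hist2h3c2, at chr3:96238108-96239127 on the minus strand, had 30.65 counts with naloxone, 26.05 with DAMGO and 34.29 in the control in D2 and was listed at 0 in all 3 NSC libraries. Set against 3 counts over the NSC group, it was 36.6-fold higher in D2, while the exact 95% interval of the count ratio starts lower, at 29.2. It shares 63.5% of its windows with Gm20634, a processed transcript that overlaps its near-copy Hist2h3c1, and Gm20634 itself had 275.1 counts with naloxone, 264.0 with DAMGO and 318.4 in the control in D2, against 21 with naloxone, 0 with DAMGO and 6.3 in the control in NSC. The 3 genes Hist2h3b, Hist2h3c1 and Hist2h3c2 together had 30.6 counts with naloxone, 29.1 with DAMGO and 34.3 in the control in D2, against 6.8 with naloxone, 11.7 with DAMGO and 7.6 in the control in NSC. Their summed level had a ratio of 3.34 in TPM and 4.07 in CPM. With the overlapping Gm20628 and Gm20634 added, the ratio was 10.7 in TPM and 20.8 in CPM. The whole H3 class was low, at 14.2 ± 0.827 TPM in D2 and 10.4 ± 2.82 TPM in NSC. This difference of 0.45 on the log2 scale was 1.10 in CPM. Over the 4 H3 genes with at least 50% unique windows it was 2.29 in TPM. Those 4 leave out Hist2h3c2, and their D2 counts are all of Hist1h3d. Hist1h3d had 0 counts with naloxone, 8.00 with DAMGO and 14.74 in the control in D2, so the 2.29 rests on few counts of 1 gene. Its GENCODE M21 transcript has 1249 bases, against 560 in the deposited tables, so its share of unique windows may differ there.

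The H4 genes went apart. Hist1h4i, at chr13:22040636-22041362 on the minus strand, was higher in D2, with 17.0 TPM with naloxone, 15.6 TPM with DAMGO and 17.7 TPM in the control, against 4.68 TPM with naloxone, 8.12 TPM with DAMGO and 6.52 TPM in the control in NSC. Its log2 fold change was 1.42 (SE 0.26, edgeR adjusted p = 0.000293). Hist4h4, the lone Hist4 gene at chr6:136801553-136804415 on the minus strand, was the only tested member that was lower in D2. It had 13.22 counts with naloxone, 20.98 with DAMGO and 17.88 in the control in D2, against 72.69 with naloxone, 56.98 with DAMGO and 58.92 in the control in NSC. Its level was 1.47 ± 0.312 TPM in D2 and 4.42 ± 0.370 TPM in NSC, and the log2 fold change was -1.61 (SE 0.23, edgeR adjusted p = 3.97e-05). Of its windows 6.8% occur in other genes, none of them members. Its annotated transcript holds both a stem-loop and a poly(A) signal near the end, with 2445 bases after the stem-loop. The same 2 features are annotated for Hist1h1c, Hist3h2a, Hist3h2ba, Hist1h4i and Hist1h2be. The H4 sum was 24.7 ± 2.44 TPM in D2 and 16.2 ± 1.79 TPM in NSC, a difference of 0.61 on the log2 scale that turned to -0.05 when CPM, which are not corrected for length, were summed.

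By genomic cluster, the ratio of summed levels was largest for the 9 Hist2 genes, which stood at 77.7 ± 10.6 TPM in D2, against 9.85 ± 3.29 TPM in NSC. The 2 Hist3 genes summed to 121 ± 12.7 TPM in D2 and 32.2 ± 4.61 TPM in NSC, and the 53 Hist1 genes to 269.7 ± 15.5 TPM in D2 and 119 ± 5.95 TPM in NSC. The ratio of the Hist2 genes, 7.88 in TPM, was 4.57 in CPM, and without Hist2h2aa2, all of whose windows are shared, their TPM ratio was 3.69, beside 3.75 for Hist3. These sums carry no test.

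The 53 members under the filter summed to 41.9 TPM with naloxone, 43.7 TPM with DAMGO and 56.5 TPM in the control in D2, against 69.1 TPM with naloxone, 73.4 TPM with DAMGO and 68.0 TPM in the control in NSC, so here every D2 library was below every NSC library. The filter itself bears on this, since members that are high in D2 alone pass it: with the 4 tested members of under 10 mean counts in NSC added, the sum was 137.2 ± 9.31 TPM in D2 and 76.2 ± 6.20 TPM in NSC, which turns the direction. The expected counts behind these sums were only 69.6 to 119.1 per library in D2 and 136.1 to 173.5 in NSC. Of the 53, 8 had no count in any library, 31 had at most 10 counts in each library, and 14 had over 10 counts in a library. Having no count allows up to 3 counts or 0.221 to 0.356 CPM per library, here by library total without the TMM factor. Mean TPM was higher in D2 for 19 of the 53 and higher in NSC for 26.

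**Figure D3:**
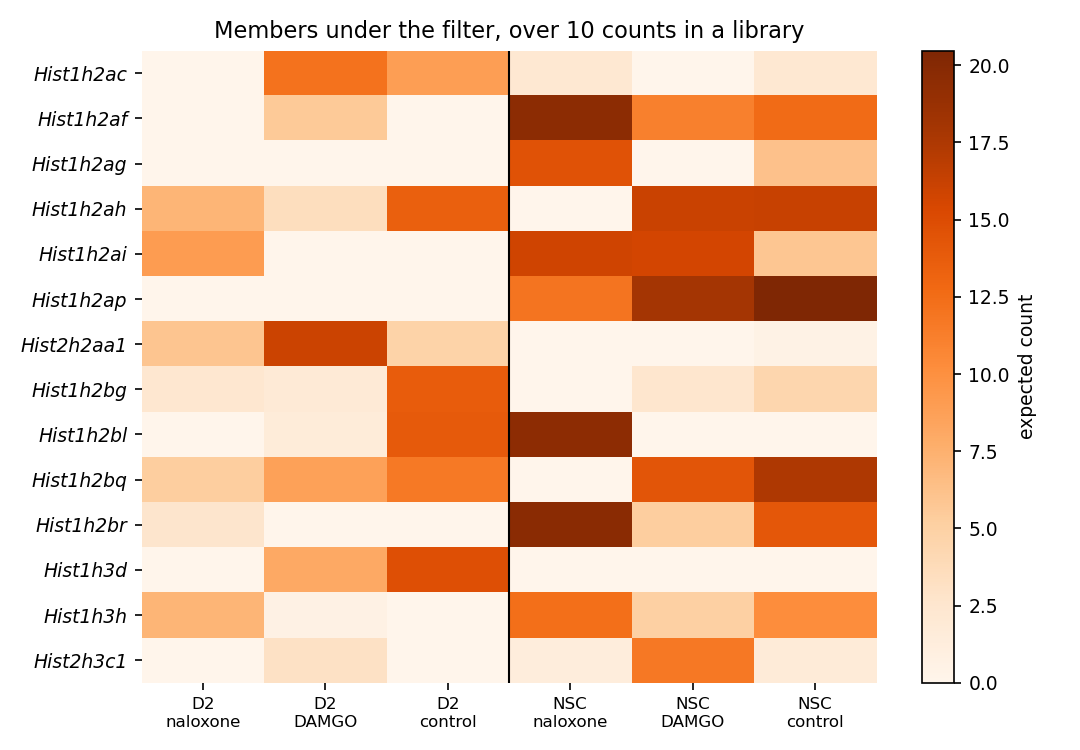
Expected counts of the 14 members under the filter that had over 10 counts in a library, as colour from 0 to the highest count, with the D2 libraries left of the line and the NSC libraries right of it. Hist1h2ap has counts in NSC only and Hist1h3d in D2 only, while others such as Hist1h2bl are present in some libraries of either state and at 0 in the rest.

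Hist1h2ap is an H2A gene at chr13:21833026-21833507 on the minus strand whose annotated transcript ends just after the stem-loop printed above. It had 11.94 counts with naloxone, 17.95 with DAMGO and 20.47 in the control in NSC. In all 3 D2 libraries it was listed at 0. Set against 3 counts over the D2 group, it was 13.8-fold lower in D2. The exact interval of the count ratio, D2 over NSC, runs up to 0.0924 and so allows a smaller fall. Hist1h2af had 0, 5.57 and 0 counts with naloxone, DAMGO and in the control in D2, against 19.52, 11.16 and 12.58 in the same conditions in NSC. Hist1h2ag was at 0 in D2 and had 14.51 counts with naloxone, 0 with DAMGO and 6.20 in the control in NSC. Hist1h2ai had 9.09 counts with naloxone and 0 with DAMGO and in the control in D2, against 15.77, 15.63 and 5.87 in the naloxone, DAMGO and control libraries of NSC. All of these share most of their windows with other H2A genes, from 78.9% in Hist1h2ag to 93.1% in Hist1h2ap, so the division of reads among them is uncertain. A sum is less so: the 16 H2A members under the filter stood at 21.3 ± 3.35 TPM in D2 and 41.3 ± 8.32 TPM in NSC. The filter bears on this direction, since Hist2h2aa2 (47.1 TPM in D2, 1.57 TPM in NSC) and Hist1h2al (22.65 TPM in D2, 2.25 TPM in NSC) passed it only through their D2 counts. All 19 H2A genes together were higher in D2, at 145 TPM against 60.5 TPM in NSC.

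Among H2B genes under the filter, Hist1h2br had 2.60 counts with naloxone and 0 with DAMGO and in the control in D2, against 19.69, 5.23 and 14.15 in the naloxone, DAMGO and control libraries of NSC, and shares 88.7% of its windows with Hist1h2bq. Hist1h2bq in turn had 5.27, 8.65 and 11.61 counts in the naloxone, DAMGO and control libraries of D2, against 0, 14.27 and 17.48 in those of NSC. In NSC with naloxone, then, the pair's counts stood wholly under Hist1h2br. Hist1h2bl had 0, 1.59 and 13.88 counts in the naloxone, DAMGO and control libraries of D2, against 19.51, 0 and 0 in those of NSC, and Hist1h2bg had 2.38, 1.8 and 13.71 in D2, against 0, 2.54 and 4.41 in NSC. For Hist1h2bq, Hist1h2bl and Hist1h2bg the libraries of the states overlapped, and for Hist1h2br they did not.

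The rest of these 14 members were mixed. Hist1h3d, an H3 gene, had 0, 8.00 and 14.74 counts in the naloxone, DAMGO and control libraries of D2 and 0 in all 3 of NSC. Hist2h2aa1 had 5.92, 16.02 and 4.72 in the naloxone, DAMGO and control libraries of D2, against 0, 0 and 0.52 in those of NSC. Hist1h2ac had 0, 12.11 and 8.91 in D2, against 2.19, 0 and 2.21 in NSC, again with naloxone, DAMGO and control in turn. These 3 had a higher mean count in D2, and the next 3 a higher one in NSC. Hist1h2ah had 7.12, 3.45 and 13.45 in D2, against 0, 16.10 and 16.23 in NSC, Hist1h3h had 7.12, 0.60 and 0 in D2, against 12.32, 5.09 and 10.23 in NSC, and Hist2h3c1 had 0, 3.07 and 0 in D2, against 1.29, 11.71 and 1.61 in NSC.

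Without the filter on low counts, 24 of the 57 members with a count were called by edgeR, 15 higher in D2 and 9 lower, where 26.6% and 27.0% of all 20791 genes were called in these directions. The 12 members added were Hist1h1d, Hist1h2ac, Hist1h3d and Hist2h2aa1, higher, and Hist1h2ae, Hist1h2af, Hist1h2ag, Hist1h2ai, Hist1h2ap, Hist1h2bj, Hist1h2br and Hist2h3b, lower. Of these, Hist1h2ap had the smallest adjusted p (edgeR, 6.51e-09). These calls rest on few counts, which for most of these members were divided among genes of shared sequence. Of the 50-base windows, 2.3% were shared for Hist1h1d, 11.6% for Hist1h2ac and 24.8% for Hist1h3d, and 43.2% to 100% for the others. The GENCODE M21 transcripts of Hist1h1d, Hist1h2ac and Hist1h3d are longer than in the deposited tables, so their shares may differ there.

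Reads shared between genes touched most members. Of the 57 members with a count in some library, 51 had at least 1 expected count that was not whole (by more than 0.005), or 89.5%, against 38.4% of all genes with a count. Over all members, 37.2% of the 50-base windows of the annotated transcripts also occur in another gene, with a median of 52.3% per member. The windows are those of GENCODE M21, where some transcripts differ in length from the deposited tables. Hist1h1d has 7425 bases against 744 there, and Hist1h2bc 1156 against 736. Shares on the annotation that the authors used may thus be higher or lower. The median was 29.8% for the 12 tested members and 58.0% for the 53 under the filter. Over 50% of the windows were shared for 33 members, of which 4 were tested. When only the 32 members with at least 50% unique windows were summed, the difference between D2 and NSC was 1.81 on the log2 scale, against 1.5 over all 65. The choice of these members rests on the same GENCODE M21 windows.

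Promoters were read from RefSeq (GRCm38.p6), which held a matching gene for 59 members, as the 250 bases before the annotated start, and 3 motifs were searched on both strands. The CCAAT box (CCAAT), bound by the factor NF-Y, occurred in 48 of the 59 members, or 81.4%, against 33.8% of all 32851 promoters. The TATA box (TATAAA) occurred in 29 members, or 49.2%, against 12.4% of all promoters. The octamer (ATTTGCAT), known from H2B promoters and bound by POU2F1, occurred in 11 members, or 18.6%, against 1.6% of all, of which 7 were H2A and 4 H2B genes. CCAAT was in all 18 H2A promoters and all 13 H2B promoters searched but in 3 of 12 H4 promoters. Of the 9 tested members with a promoter, 6 held CCAAT, 3 TATAAA and 2 the octamer. The promoters of 3 members that were higher in D2 and of Hist4h4, which was lower, are printed 5' to 3' on the strand of the gene, with matches on either strand in capitals.
Hist1h1c, chr13:23738557-23738806, plus strand: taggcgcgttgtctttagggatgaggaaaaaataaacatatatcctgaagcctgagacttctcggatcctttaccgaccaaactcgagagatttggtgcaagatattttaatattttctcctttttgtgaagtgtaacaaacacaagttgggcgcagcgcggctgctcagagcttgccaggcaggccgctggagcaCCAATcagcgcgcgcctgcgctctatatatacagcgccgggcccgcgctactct
Hist3h2a, chr11:58954435-58954684, plus strand: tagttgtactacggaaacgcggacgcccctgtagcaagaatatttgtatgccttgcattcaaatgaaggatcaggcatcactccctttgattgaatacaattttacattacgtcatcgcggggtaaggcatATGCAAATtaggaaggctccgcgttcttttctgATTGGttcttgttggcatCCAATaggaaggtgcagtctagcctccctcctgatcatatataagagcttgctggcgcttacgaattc
Hist3h2ba, chr11:58948661-58948910, plus strand: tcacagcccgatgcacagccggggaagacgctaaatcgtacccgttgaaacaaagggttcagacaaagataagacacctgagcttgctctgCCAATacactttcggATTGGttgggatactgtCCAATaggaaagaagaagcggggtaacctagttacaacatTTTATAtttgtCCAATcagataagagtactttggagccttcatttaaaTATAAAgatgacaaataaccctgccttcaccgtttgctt
Hist4h4, chr6:136804432-136804681, minus strand: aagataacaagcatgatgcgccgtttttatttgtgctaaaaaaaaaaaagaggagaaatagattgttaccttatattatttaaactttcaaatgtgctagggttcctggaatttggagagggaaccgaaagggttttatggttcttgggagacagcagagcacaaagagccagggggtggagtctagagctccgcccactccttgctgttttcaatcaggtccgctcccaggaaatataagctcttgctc
Hist1h1c held 1 CCAAT, Hist3h2a 2 CCAAT and 1 octamer, Hist3h2ba 4 CCAAT and 2 TATAAA, and Hist4h4 none of the 3 motifs. Among members that were higher in D2, Hist2h3c2 also held none of the 3, and Hist1h4i held no CCAAT. A match here describes letters only.

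Genes that act with the clustered histones mostly went the other way in the same comparison. Of 43 genes of DNA replication and S phase, 43 were called lower in D2 and 0 higher, with a median log2 fold change of -2.67. The largest were Ccne2, a cyclin of S-phase entry (-4.85, SE 0.13), the DNA polymerase subunit Pola1 (-4.39, SE 0.09), thymidine kinase Tk1 (-3.99, SE 0.08) and the checkpoint adaptor Clspn (-3.61, SE 0.08). Of 20 genes of G2/M and mitosis, 20 were called lower, with a median of -3.06, led by Cenpe (-6.04, SE 0.09), Mki67 (-5.64, SE 0.12), Cenpf (-5.31, SE 0.09) and Bub1 (-4.83, SE 0.09). Mki67, the proliferation marker, averaged 6.77 ± 2.14 TPM in D2 and 327.9 ± 7.85 TPM in NSC.

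Of 34 genes of histone mRNA processing and transcription, 25 were called lower, 5 higher and 4 were not called, with a median of -0.43. Slbp, which binds the stem-loop, averaged 57.4 ± 4.01 TPM in D2 and 180.4 ± 7.40 TPM in NSC (log2 fold change -1.57, SE 0.06, edgeR adjusted p = 4.30e-10). Npat, the coactivator of histone gene transcription, averaged 7.84 ± 1.46 TPM in D2 and 29.8 ± 1.64 TPM in NSC (-1.91, SE 0.10). Casp8ap2, a component of the histone locus body, had a log2 fold change of -3.67 (SE 0.12), and the S-phase factors E2f2 and E2f1 had -2.95 (SE 0.11) and -2.44 (SE 0.12).

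Histone chaperones and assembly factors were called lower for 25 of 31 and higher for 2, with a median of -1.34. The largest were Dek (-3.82, SE 0.09), the CAF-1 subunits Chaf1b (-3.68, SE 0.09) and Chaf1a (-3.03, SE 0.07), which place new H3 and H4 on copied DNA, and the H3 and H4 chaperone Asf1b (-2.98, SE 0.10). Of 11 replication-independent histone variants tested, 5 were called higher, 4 lower and 2 not, with a median of 0.03. H3f3a, which encodes H3.3, averaged 3153 ± 153 TPM in D2 and 1941 ± 75.5 TPM in NSC (0.73, SE 0.05). The centromeric H3 variant Cenpa (-2.91, SE 0.07), H2afz (-1.85, SE 0.05) and H2afx (-1.35, SE 0.05) were lower in D2. In TPM the single gene H3f3a stood far above the sum of all 12 clustered H3 genes in either state. Tailless histone mRNA may be captured poorly here, as said above, so these TPM need not stand for total H3 mRNA.

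Of 13 enzymes that modify H3 and H4, 10 were called lower and 1 higher, with a median of -0.40, the largest being Suv39h2 (-2.01), Kmt5a (-1.64), Ezh2 (-1.42) and Hdac2 (-0.81). Of 16 cell cycle inhibitors, pocket proteins and D cyclins with their kinases, 8 were called lower and 5 higher, with a median of -0.29. Cyclin D1 (Ccnd1, -4.18), Cdkn1a (-2.92) and Rbl1 (-2.62) were lower in D2, and the antiproliferative gene Btg2 (2.79) was higher.

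**Figure D4:**
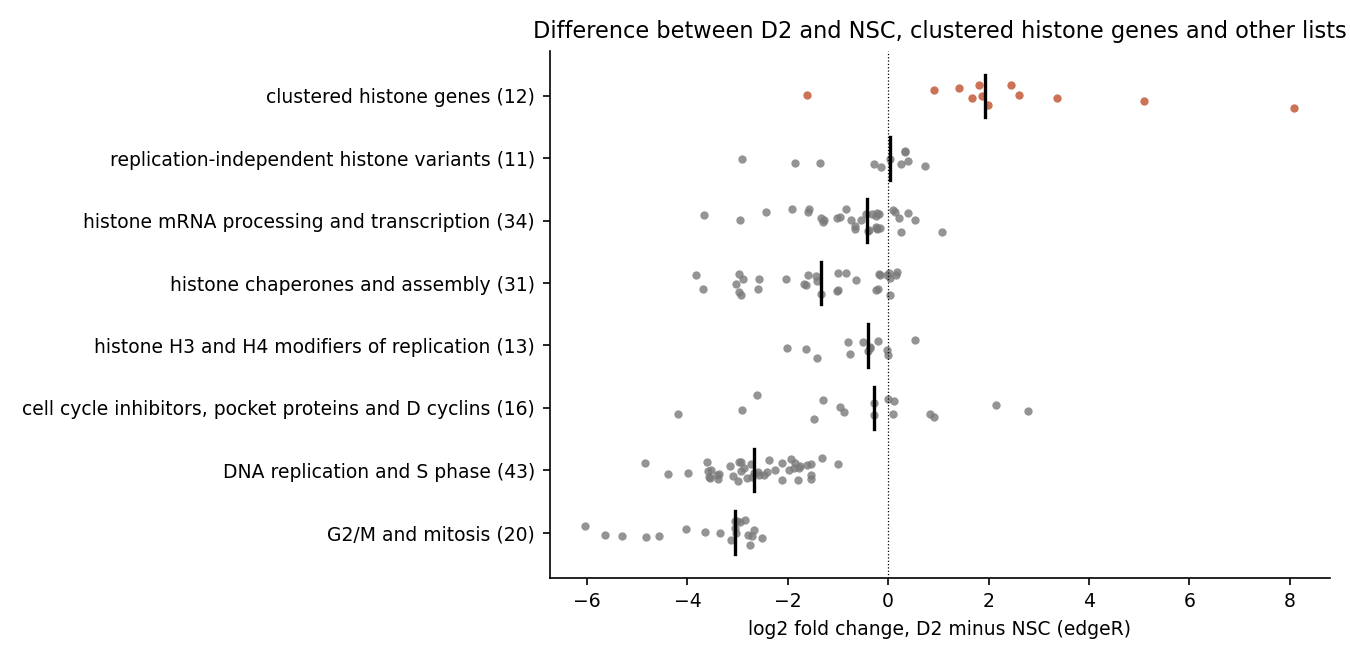
Log2 fold change of D2 minus NSC for each tested gene of the clustered histone genes (top row) and of 7 other lists, with the number of tested genes in brackets and a bar at the median. The medians are 1.93 for the clustered histone genes (1.74 over the 8 with a mean of 10 or more counts in both states), -2.67 for DNA replication and -3.06 for mitosis, and the rightmost point is Hist2h3c2, whose fitted value rests on 0 counts in NSC and is no bound.

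The opioid ligands were compared over both states together, with state as a term. No member was called for naloxone, for DAMGO or between the ligands by edgeR, and 0 of 12 had an unadjusted p under 0.05 in any of these contrasts. Of all genes tested, 0.0151% were called for naloxone minus control, 0.0151% for DAMGO minus control and 0.0303% for naloxone minus DAMGO, and 293, 317 and 280 genes had an unadjusted p under 0.05. DESeq2 also called 0 members. For naloxone minus control the log2 fold changes of the 12 members ran from -0.49 (Hist2h2aa2, SE 0.49) to 0.13 (Hist2h3c2, SE 0.49), and the smallest unadjusted p was 0.114 (edgeR), for Hist2h2be. For DAMGO minus control they ran from -0.53 (Hist1h2be, SE 0.35) to 0.42 (Hist1h2bk, SE 0.70), with a smallest unadjusted p of 0.159 (edgeR). For naloxone minus DAMGO they ran from -0.80 (Hist2h2aa2, SE 0.50) to 0.60 (Hist1h2be, SE 0.35), and the smallest unadjusted p was 0.0850 (edgeR), for Hist3h2ba. The standard errors ran from 0.10 to 0.90 and were widest for the members of low counts.

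**Figure D5:**
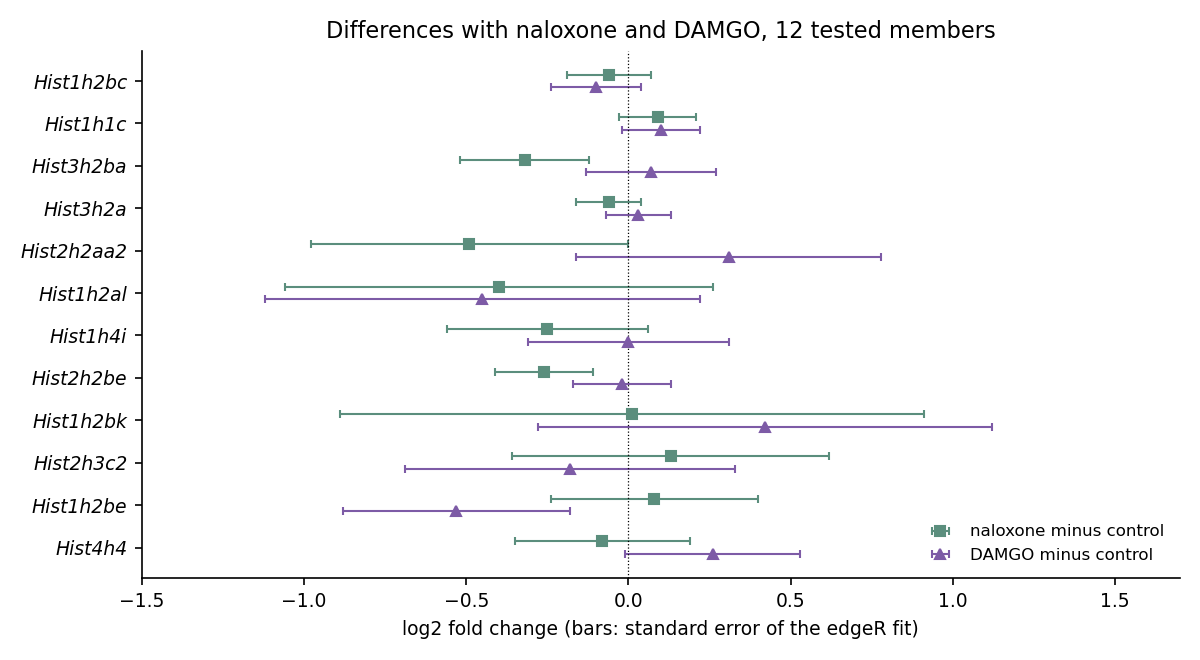
Log2 fold change with naloxone (squares) and with DAMGO (triangles), each minus control, for the 12 tested members, with bars of 1 standard error of the edgeR fit over both states. The values lie between -0.53 and 0.42, and no member was called.

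Within a state each ligand comparison sets 1 library against another and has no test. Only 3 members reached 20 CPM, Hist1h1c, Hist3h2a and Hist1h2bc, and only in D2, and none was past 1.5-fold. In D2, 0.582% of genes at that level passed 1.5-fold with a counting interval that left out 1 for naloxone over control, 0.596% for DAMGO over control and 0.407% for naloxone over DAMGO, while in NSC, where no member reached 20 CPM, these shares were 0.0735%, 0.122% and 0.0855%. With naloxone over control in D2, the ratio was 0.973 for Hist1h1c, 0.955 for Hist3h2a and 0.939 for Hist1h2bc, with intervals that held 1. With DAMGO over control in D2, it was 0.983, 1.00 and 0.876 for the same genes. Just under 20 CPM in the D2 control were Hist3h2ba and Hist2h2be. Their ratios for naloxone over control in D2 were 0.681 (interval 0.535 to 0.863) and 0.893 (0.717 to 1.11). The summed counts of all 65 members gave a ratio of 0.912 (interval 0.856 to 0.971) for naloxone over control in D2 and 0.960 (0.902 to 1.02) for DAMGO over control in D2, and of 0.969 (0.876 to 1.07) and 1.12 (1.01 to 1.25) in NSC. For naloxone over DAMGO it was 0.95 (0.889 to 1.02) in D2 and 0.863 (0.779 to 0.957) in NSC. These intervals cover counting error only. Library pairs differed by more than that, with a chi-square per degree of freedom of 3.83 to 4.05 between D2 libraries and 1.58 to 1.85 between NSC libraries over all tested genes.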

How the data were processed

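RNA from 6 libraries, 1 per state and ligand condition, was extracted with Trizol and made into libraries with a TruSeq RNA kit before sequencing by the authors, as the labels' protocols state. Per the submitters' processing notes, Bowtie, RSEM and the genome build mm10 were used; the sources used here give neither versions nor the annotation. The authors deposited an RSEM gene table per library, and per the file headers its values are expected counts, which divide reads shared between genes, and TPM, scaled by effective length. The deposited FPKM were not used.

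Here the expected counts were rounded, which moved a library total by at most 46.1. Genes whose mean count reached 10 were kept (13216, with at least 99.8% of the counts) and fitted with TMM factors and edgeR's quasi-likelihood test, with terms for state and ligand, after a test on simulated counts. The fit left 2 residual degrees of freedom, which mix library noise and state-specific ligand effects, and adjusted p-values are Benjamini-Hochberg over all genes tested, called under 0.05. Since each group has 1 library, and nothing says that libraries came from separate cultures, the spread behind p-values is that between these libraries and may be technical, and an SD is over the 3 ligand conditions of a state. Library totals of 8417041 to 13561208 counts set the precision. Intervals and floors of 3 counts cover counting error only.

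The members and the gene lists were chosen with earlier results of these data known. The text names every tested member, members under the filter with over 10 counts in a library, and from each list the 4 called genes of largest change, with Slbp, Npat, Mki67, Nes, Gfap and Tubb3 always. Identifiers of 28756 of 29267 genes matched GENCODE M21. Alternatives were RLE factors, DESeq2, no filter, unrounded counts, limma on log2(TPM + 1) and log2(TPM + 0.1), rows summed by class, state as the only term, and leaving out each library or both libraries of a ligand condition. R 4.3.3, edgeR 4.0.16, limma 3.58.1, DESeq2 1.42.0, Python 3.11.15, pandas 2.3.3 and SciPy 1.17.1 were used.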

Additional observations from a re-analysis of the deposited data

How the results depend on the processing

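Of 192 combinations of a tested member and an alternative, 191 kept the direction and the side of the threshold of the state difference. The exception was Hist1h2be with DESeq2 (log2 fold change 0.91, adjusted p 0.116). These include Hist2h2aa2, Hist2h3c2, Hist1h2bk and Hist1h2al, which passed the filter only through their D2 counts. Their direction was set in advance, so the 191 are a description. DESeq2 called 11 members and every other alternative with the filter 12, apart from the fit of rows summed by class, which has no single members, while 24 were called without the filter. Over all genes the state calls ranged from 9096 with DESeq2 to 11152 without the filter. No member was called for a ligand under any alternative. The few ligand calls over all genes, 2 for naloxone, 2 for DAMGO and 4 between the ligands, were unstable: they came to 0 with RLE factors, 1 with DESeq2, 45 without the filter and 0 with limma at either pseudocount for naloxone, to 0 with DESeq2, 83 without the filter and 0 with limma for DAMGO, and to 1 with RLE factors, 0 with DESeq2, 53 without the filter, 0 with limma and 1 with unrounded counts between the ligands. Leaving out 1 library gave 1 to 74 for naloxone, 4 to 123 for DAMGO and 5 to 37 between the ligands, where the lowest moved count was 20. Summed as TMM-scaled CPM in place of TPM, the D2 minus NSC difference was 1.62 for H2A (main value 1.26), 1.10 for H3 (0.45) and -0.05 for H4 (0.61), which turned the direction of H4. Over members with at least 50% unique windows it was 1.52 for H2A, 2.29 for H3 and 1.81 for all members (1.5). The H3 value rests on the few D2 counts of Hist1h3d alone, and all windows are those of GENCODE M21 transcripts. The share of shared windows was 33.83% at 75 bases and 30.84% at 100 bases, against 37.21% at 50. The cause of these shifts was not tested. The fit pairs D2 with NSC by ligand condition, and without the ligand term 10710 genes and 12 members were called. No paired analysis was possible by replicate number because the labels give none and each group holds 1 library. Depth limits the members under the filter, whose counts per library stayed at or under 20.47.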
